A study of Homo sapiens with 8 samples.

Results

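The genes described here encode the proteins of the cytosolic ribosome, the particle that translates messenger RNA. They were chosen by symbol alone, as RPL (large subunit) or RPS (small subunit) followed by a number and at most 1 of the letters A, X and L, together with RPLP0, RPLP1, RPLP2 and RPSA. This took 78 of the 16782 genes in the table, 48 of the large and 30 of the small subunit. RPS26 and RPS27L shared their rows with a further symbol and fell outside this choice, as did FAU, which encodes a ribosomal protein under another name. CAKI1 cells, an established human renal carcinoma line, had been deprived of serum for 24 h. In the hLcn-2 group they then received 5 µg/ml of holo-lipocalin-2 (hLcn-2, the iron-loaded form of the iron carrier lipocalin-2) for 24 h, and the control group was left unstimulated. Each group had 4 samples, numbered 1 to 4, with the same numbers in both groups. Every sample came from the same line, and no source used here states that the samples were separate cultures, so the p-values measure the spread between these samples.

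Ribosomal proteins assemble with ribosomal RNA in the nucleolus and are needed in equal numbers, 1 copy of most per ribosome. Their mRNAs are short and abundant and usually begin with a C followed by a run of pyrimidines, the terminal oligopyrimidine (TOP) tract, through which mTOR signalling and the RNA-binding protein LARP1 control their translation as a group. Human cells also carry many processed pseudogenes of these genes, intron-less copies whose sequence can be almost identical to the mRNA, so that a short read from the 3′ end may match several places in the genome.

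The TOP tract was read from RefSeq sequences around the annotated start of transcription (GRCh38.p14), in which 61 of the 78 genes were matched. RPL23, RPL23A, RPL30, RPL37, RPL39L, RPL3L, RPL5, RPL7, RPL8, RPS15A, RPS2 and RPS20 were among those not matched. A tract was counted where the first base was a C followed by at least 4 bases that were each C or T, on the transcribed strand. It was present at the annotated start of 42 genes (68.9%), against 4.04% of 27305 promoters in the same table. Allowing a shift of up to 5 bases, it was present in 50 genes (82.0%), against 21.1% of all promoters. The stretches below run from 10 bases before the start to 20 bases from it, so that base 11 is the annotated first base. The longest run of pyrimidines that begins with a C within 5 bases of it is in capitals. They are shown for the 4 genes with the highest levels and for 4 genes whose values the results below turn on.
RPL27A, chr11:8682782-8682811, plus strand: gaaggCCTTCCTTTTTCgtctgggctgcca
RPS12, chr6:132814559-132814588, plus strand: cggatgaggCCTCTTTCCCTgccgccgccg
RPS27A, chr2:55231893-55231922, plus strand: agtgacacacaagacccagactcttcccta
RPL37A, chr2:216498834-216498863, plus strand: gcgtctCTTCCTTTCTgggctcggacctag
RPS28, chr19:8321486-8321515, plus strand: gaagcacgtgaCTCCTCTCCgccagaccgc
RPS18, chr6:33272065-33272094, plus strand: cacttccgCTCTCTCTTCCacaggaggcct
RPL39, chrX:119791611-119791640, minus strand: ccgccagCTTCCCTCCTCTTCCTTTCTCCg
RPS25, chr11:119018324-119018353, minus strand: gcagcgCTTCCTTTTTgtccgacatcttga
RPS27A had no such run within 5 bases of its annotated start, and in RPS28 the run began just after it. Further downstream, the RPS27A stretch does hold a run of pyrimidines, left in lower case. In the other 6 the annotated first base lay inside the run. The median transcript length of the 78 genes was 781.5 bases, against 2803 for all genes (GENCODE 44).

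Values are given as normalized counts per 1000000 reads (CPM), the deposited unit. The libraries count 3′ ends of transcripts, so that no division by transcript length was made when levels of different genes were compared. Libraries held between 1501563 reads (control 4) and 13953090 reads (control 1), a 9.29-fold range, and the ribosomal protein genes received 74267 reads in the smallest and 731800 in the largest library. Of 10 renal epithelial and carcinoma markers, 9 were in the table, and CA9 was not among them. Their means over all samples ran from 2.75 (the renal transcription factor PAX2) to 1769 (VIM). The renal transcription factor PAX8 averaged 226 ± 22.4 in control and 223 ± 18.3 in hLcn-2 (SD, n = 4). Of 8 marker genes of other cell types, 1 was in the table, the liver gene ALB, at a mean of 0.661.

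The 78 genes together took 5.24%, 4.90%, 5.01% and 4.95% of all values in control samples 1 to 4, and 5.40%, 4.96%, 5.17% and 5.16% in hLcn-2 samples 1 to 4. The means were 5.02% ± 0.152 in control and 5.17% ± 0.180 in hLcn-2 (SD, n = 4), and the ranges of the groups overlapped. Each hLcn-2 sample was above the control sample of its number. The difference in means of 0.143 percentage points was smaller than the SD of either group, but these SDs include the spread between numbers. The spread of the differences within pairs was not computed. The difference in means was 0.0677 without hLcn-2 1 and 0.217 without control 1. Number 1 had the highest share in both groups and number 2 the lowest in both. In bulk RNA, a shift in the mix of cells and a change of RNA per cell cannot be told apart.

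Although ribosomes hold most of their proteins in equal numbers, mRNA levels of the 78 genes ranged from 2463 (RPL27A) to 0.804 (RPL3L). The median was 451.6. The span of more than 3 orders of magnitude rested on RPL3L and RPL17, the only genes with means under 10. RPL3L is a paralog of RPL3, and most of the 3′ end of RPL17 also occurs elsewhere in the genome. Without these genes the span was under 3 orders of magnitude, and the lowest gene was RPS10, whose 3′ end is also largely shared. With 16 genes averaging over 1000, the distribution was uneven, and the 10 highest took 38.6% of the sum over all 78. At the upper end, RPL27A measured 2196, 1865.0, 2899 and 2485 in control and 2467, 2329.6, 2804 and 2660.4 in hLcn-2. RPS12, whose protein lies in the head of the small subunit, measured 2469.5, 1906, 2402 and 2745 in control and 2820.2, 1999.9, 2498 and 2634 in hLcn-2. Both genes had their lowest value of each group in number 2. RPS27A, translated as a fusion to ubiquitin, measured 2194, 1704, 2144 and 2689 in control and 2638, 1815, 2179.7 and 2197 in hLcn-2. RPL37A, a zinc-binding protein of the large subunit, measured 2184, 1768, 2041 and 2051 in control and 2421, 1868, 2093 and 1963 in hLcn-2. The SDs over the 8 samples of these 4 genes were 9.72% to 15.7% of their means, so that neighbours in this order did not differ beyond their spread.

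**Figure D1:**
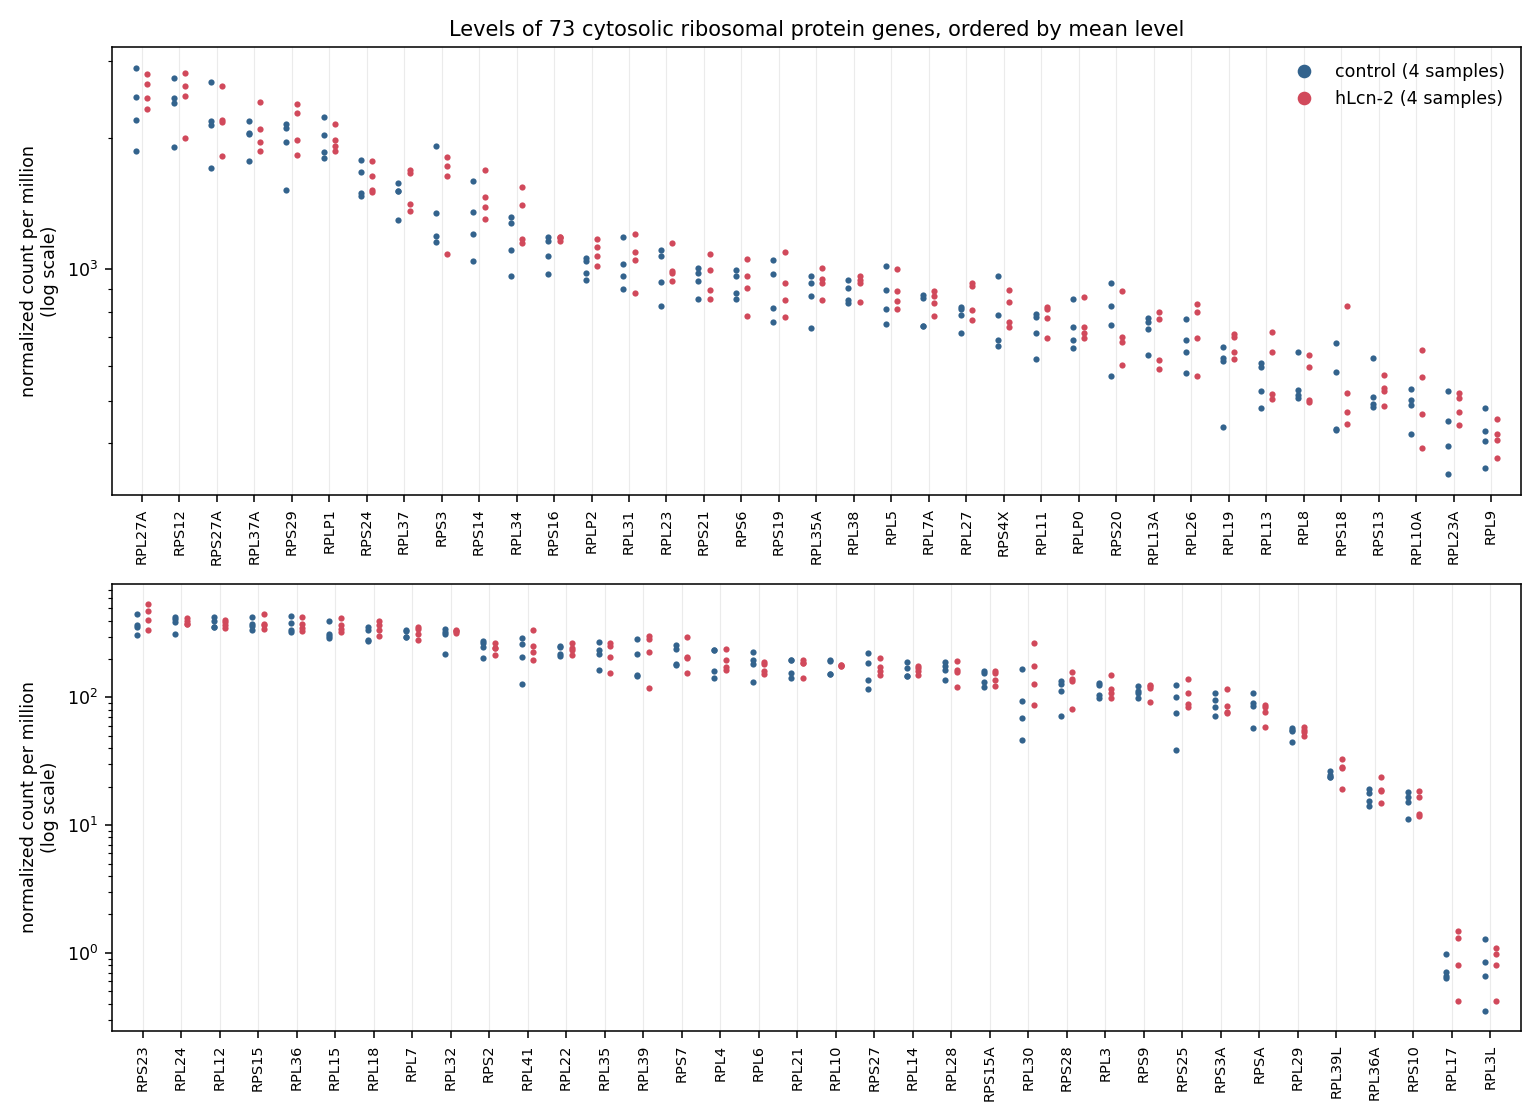
Normalized CPM (log scale) of 73 ribosomal protein genes in the 4 control (blue) and 4 hLcn-2 (red) samples, each point 1 sample, genes ordered by mean level from RPL27A at 2463 to RPL3L at 0.804. In nearly every gene drawn the points of the groups overlap, and RPL17 and RPL3L lie far below the rest.

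At the lower end, RPL3L, the paralog of RPL3 used in heart and skeletal muscle, was at 0.845, 1.28, 0.353 and 0.658 in control and at 0.802, 0.423, 0.987 and 1.09 in hLcn-2, from at least 1 and at most 17 reads per library. RPL3 itself, which reaches into the peptidyl transferase centre, averaged 117. RPL17 was as low as RPL3L, at 0.634, 0.975, 0.705 and 0.658 in control and 0.802, 0.423, 1.48 and 1.30 in hLcn-2, from 1 to 13 reads. The floor of 3 reads was worth between 0.211 and 1.98 in the 8 libraries. Both genes lay at or under it in control 4, hLcn-2 2 and hLcn-2 3, and RPL3L also in control 3, so that they could not be told from it there. RPS10 was next, at 11.2 to 18.3 in control and 11.8 to 18.5 in hLcn-2, then RPL36A at a mean of 17.8, followed by RPL39L, the paralog of RPL39 known from testis and tumors, at 25.9.

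Several low levels stood beside a 3′ end that is not unique in the genome. The last 300 bases of each transcript were read in overlapping windows of 70 bases, about the length of a read, and each window was looked for elsewhere in GRCh38. In 36 genes no window was found elsewhere, in 24 up to 50% were, and in 18 more than 50% were. Median levels in these 3 classes were 663, 579 and 172, in this order. Some canonical transcripts were long, with 7573 bases in RPL37 and 7136 in RPL14, both without shared windows. Whether the reads came from the ends of the transcripts used was not tested, so the classes hold for those ends only. In RPL17 (chromosome 18, 49488453 to 49492508, minus strand, 7 exons) 98.7% of windows occurred elsewhere, and 93.7% of the end was also annotated as the read-through gene RPL17-C18orf32 on the same strand. Of its pseudogenes, RPL17P18 was listed at a mean of 146.5 beside 0.873 for RPL17. In RPS10 (chromosome 6, 34417454 to 34426069, minus strand, 6 exons) 85.3% of windows occurred elsewhere, and 68.7% of the end was shared with RPS10-NUDT3. RPL36A (chromosome X, 101390824 to 101396155, plus strand, 5 exons) had no window elsewhere in the end of its canonical transcript of 761 bases. RPL36AP37 was listed at 103 beside 17.8 for RPL36A.

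In all, 254 pseudogene rows belonged to 67 of the 78 genes. Their summed mean was above the gene's own in RPL17 and RPL36A. The largest single one was RPS13P2, at 372 beside 529 for RPS13. How reads with several matches were treated is not given in the sources used here, so that low levels of genes with shared ends cannot be told apart from reads lost to, or counted at, their copies. Adding all pseudogene values raised RPL17 from 0.873 to 152 and RPL36A from 17.8 to 125, and it moved the share of the 78 genes to 5.25% ± 0.134 in control and 5.43% ± 0.158 in hLcn-2.

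**Figure D2:**
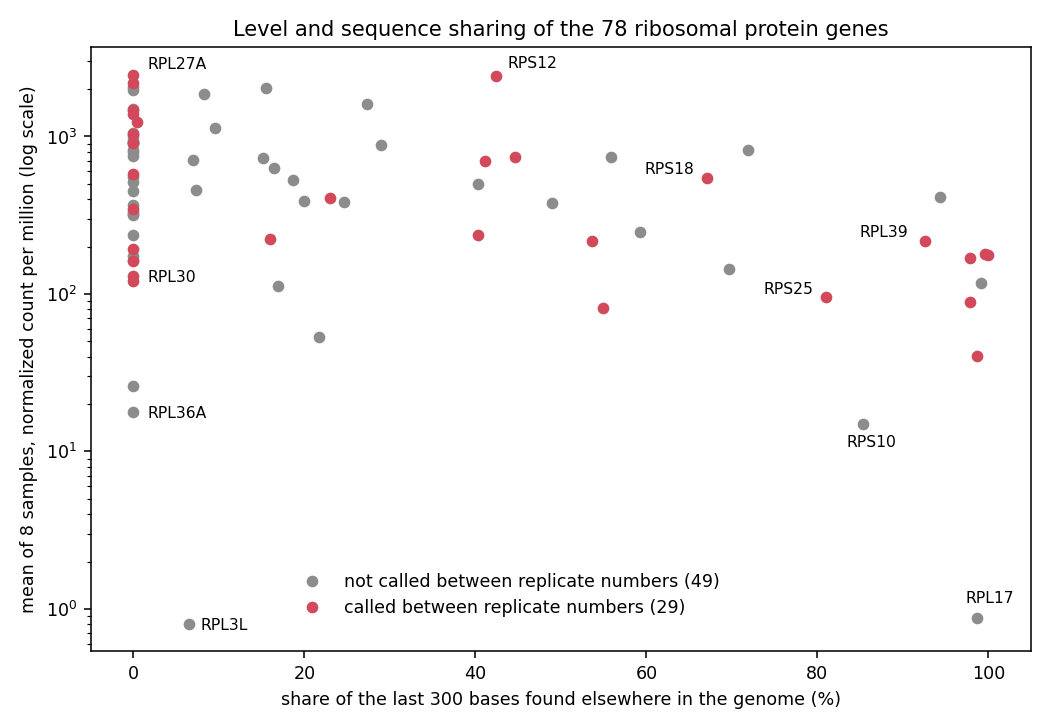
Mean level of each of the 78 genes over 8 samples (log scale) against the percentage of 70-base windows of its last 300 bases that occur elsewhere in the genome, with the 29 genes that differed between replicate numbers in red and the other 49 in grey. Genes without shared windows have a median of 663 and those with more than 50% shared a median of 172. RPL36A is low without any shared window in the canonical transcript used.

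The main comparison asked whether 24 h of hLcn-2 changed these mRNAs. None of the 78 ribosomal protein genes passed the test (limma on log2 of the normalized count + 1, Benjamini-Hochberg adjusted over 15477 genes), where 0% of all genes passed, 0 of 15477. All 78 had passed the filter on low values. At an unadjusted p under 0.05 the counts were 0 of 78 and 353 of 15477 (2.28%). On the whole reads recovered from the table, edgeR and DESeq2 each called 0 genes (0%) as well, with 321 and 286 genes at an unadjusted p under 0.05.

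The estimates were small and their intervals narrow. The log2 fold changes of the 78 genes had a median of 0.050, with quartiles at 0.016 and 0.13, while the median over all genes tested was 0.00086. In 75 genes the estimate was within 0.25 of 0 on the log2 scale, and RPL30 and RPS25 were among the other 3. The 95% interval lay within a 1.5-fold change in either direction in 67 of 78 genes (85.9%), against 38.0% of all genes tested. Many of the latter have lower levels, and the intervals of genes of like level were not compared. The median was 0.052 for the large and 0.030 for the small subunit, and the median standard errors were 0.14 and 0.16.

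Estimates above 0 were more frequent than below it, in 63 of 78 genes (80.8%) against 50.2% of all genes tested. The genes of 1 library share its depth and scaling, so this count is a description. By pairs of the same number, the median difference was 0.033, 0.0085, 0.068 and 0.19 on the log2 scale, and 46, 40, 60 and 58 genes were higher in hLcn-2. In all, 12 genes were higher in 4 of 4 pairs (15.4%, against 9.96% of all genes tested) and 0 were lower in 4 of 4 (against 10.9%). Scaled to the library total without ribosomal protein and mitochondrial genes, 54 genes were above 0 and the median was 0.028, a scaling under which the median of all genes was −0.020.

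**Figure D3:**
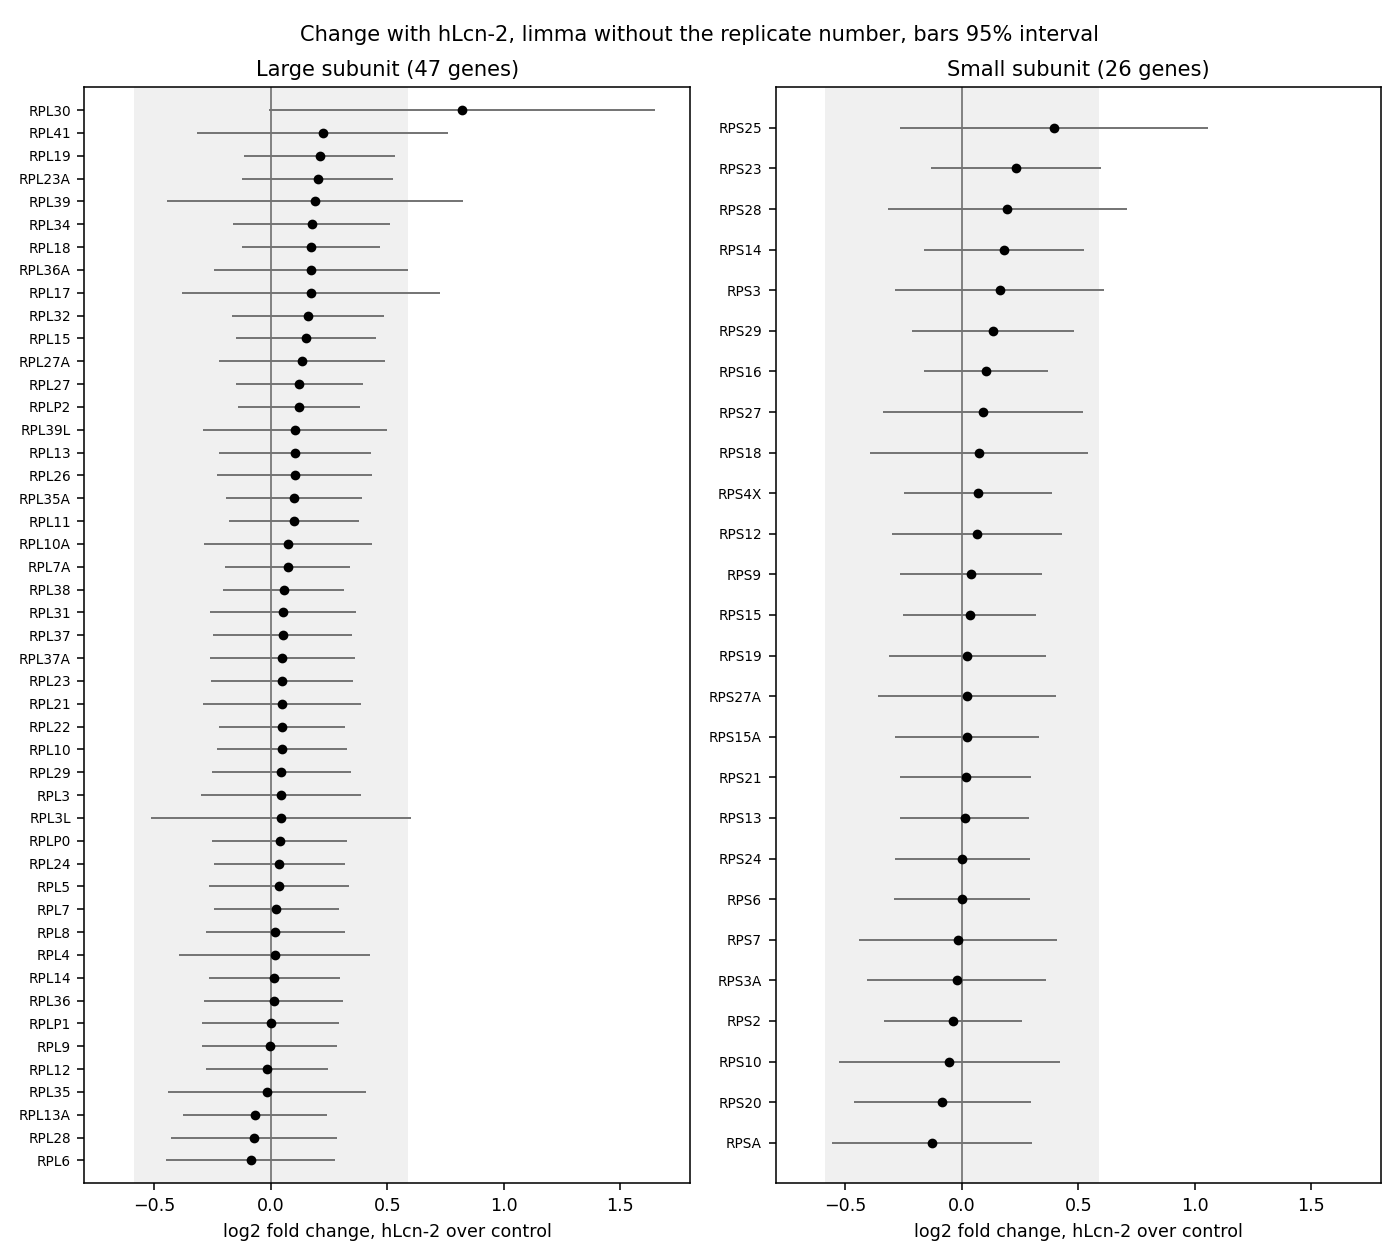
Log2 fold change of hLcn-2 over control for 47 genes of the large and 26 of the small subunit, points with 95% intervals from limma without the replicate number, the grey band marking changes under 1.5-fold. Every interval drawn reaches 0 or below, and RPL30 at 0.82 and RPS25 at 0.40 lie apart from the rest.

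Samples of the same number deviated together (correlations of 0.31 to 0.61 over all genes), so the comparison was also made with the number as a block. None of the 78 genes passed then (limma, adjusted), beside 44 of 15477 genes (0.284%). Of the 78, 9 (11.5%) had an unadjusted p under 0.05, all of them higher with hLcn-2, beside 12.2% of all genes in either direction and 6.66% in that direction. With the same block, edgeR on the recovered reads called 1 of the 78, RPL30 (1.28%), beside 227 of 15477 genes (1.47%). After adjustment, the share of ribosomal protein genes that passed was near or under that of all genes in both fits.

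RPL30, a protein of the large subunit, had the largest estimate. It measured 94.5, 168, 69.3 and 46.8 in control and 265, 176, 126 and 87.4 in hLcn-2. It was higher in hLcn-2 in 4 of 4 pairs, although the ranges of the groups overlapped, since control 2 was above hLcn-2 samples 3 and 4. The log2 fold change was 0.82 ± 0.38 (SE) with an adjusted p of 0.9999 in limma. With the block the SE was 0.16 and the limma adjusted p was 0.0567. It was 0.0134 in limma with the block on reads thinned to the shallowest library, and 0.0118 in edgeR with the block. The differences in pairs 1 to 4 were 1.48, 0.065, 0.86 and 0.89 on the log2 scale. Without control 4, the shallowest library, in which RPL30 had 71 reads, the estimate was 0.54, and without control 2 it was 1.15. No window of its 3′ end occurred elsewhere, but 85.3% of the end lies opposite to the antisense gene RPL30-AS1, and the strand setting of the counting is not given in the sources used here, so that reads of these genes cannot be told apart.

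RPS25, which some viral RNAs need for entry of the ribosome, was singled out here after its values were seen (chromosome 11, 119015712 to 119018691, minus strand, 5 exons). It measured 102, 124, 75.3 and 38.85 in control and 139, 109, 83.4 and 89.4 in hLcn-2. Its pair differences were 0.45, −0.19, 0.15 and 1.18 on the log2 scale, so that the largest came from number 4, and the limma adjusted p with the block was 0.351. Of the windows of its 3′ end, 81.0% occurred elsewhere.

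RPS23 and RPL19 were among the genes with the smallest p-values. RPS23, a protein of the decoding centre, measured 310.1, 368, 454 and 359 in control and 339, 406, 477 and 539 in hLcn-2, a log2 difference of 0.23 ± 0.17 (SE) and a limma adjusted p of 0.310 with the block. RPL19, which forms a bridge between the subunits, averaged 586 ± 102 in control and 670.2 ± 41.6 in hLcn-2 (SD, n = 4). In RPL19 control 4 was the lowest sample, at 436.

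**Figure D4:**
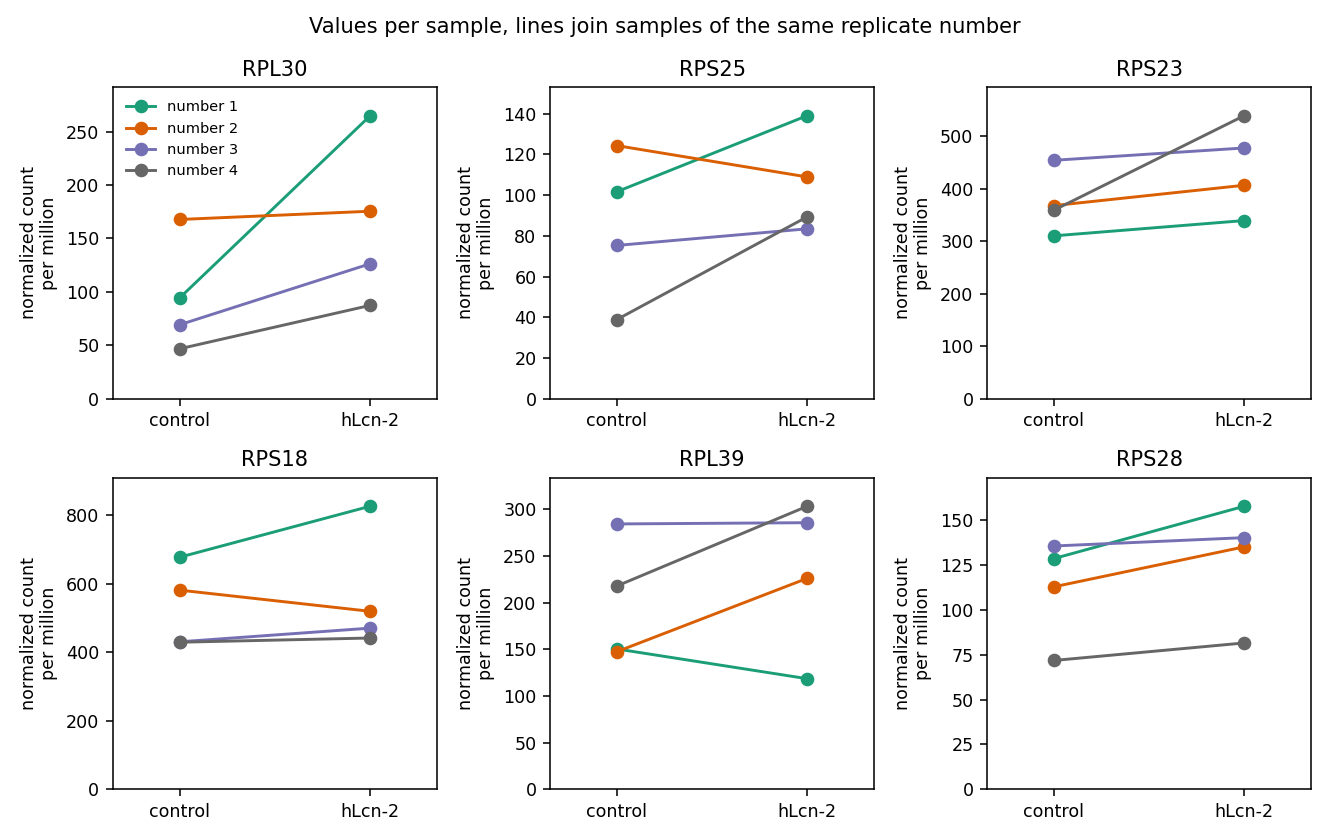
Normalized CPM of 6 ribosomal protein genes in each sample, lines joining control and hLcn-2 samples of the same replicate number. RPL30, RPS23 and RPS28 are higher in hLcn-2 in every pair with overlap of the groups, and RPS18 and RPL39 differ more between numbers than between groups.

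Grouped by role, none of the genes named below passed the test in limma, with or without the block. The stalk, which recruits translation factors, is formed by RPLP0, RPLP1 and RPLP2. RPLP0 measured 739.8, 660.4, 689 and 853 in control and 714, 698, 739.6 and 867 in hLcn-2, a log2 difference of 0.038 ± 0.13 (SE). RPLP1 averaged 1986 ± 197 and 1979.7 ± 123, and RPLP2 averaged 1009 ± 52.9 and 1097.5 ± 65.5 (SD, n = 4). The estimate for RPLP1 was −0.0011 on the log2 scale, and RPLP2 was higher in 4 of 4 pairs at 0.12 ± 0.12 (SE).

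RPL5 and RPL11 bind the ribosomal 5S RNA and, when ribosome assembly is disturbed, bind MDM2 and release p53. RPL5 averaged 869.9 ± 116 in control and 889 ± 82.6 in hLcn-2, and RPL11 averaged 726 ± 75.9 and 776 ± 55.8 (SD, n = 4). Their log2 fold changes were 0.035 ± 0.14 and 0.099 ± 0.13 (SE), and in both the groups overlapped.

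RPS6, the substrate of the S6 kinases, measured 998, 967, 881 and 855 in control and 1057, 905, 968 and 783 in hLcn-2, and the log2 difference was −0.00096 ± 0.13 (SE). RPL13A, which is often taken as a reference gene in quantitative PCR, measured 732, 635, 758 and 774 in control and 771, 592, 800.3 and 618 in hLcn-2. It was higher in hLcn-2 in 2 of 4 pairs, and the log2 difference was −0.069 ± 0.14 (SE). RPL10, a protein that joins the large subunit late in assembly, averaged 173 ± 24.2 in control and 178 ± 1.55 in hLcn-2 (SD, n = 4).

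RPSA, also known as the laminin receptor, had the lowest estimate of the 78 genes, at −0.13 ± 0.20 (SE) on the log2 scale. It measured 89.7, 85.3, 57.8 and 109 in control and 87.2, 77.2, 58.8 and 84.8 in hLcn-2, and number 3 was lowest in both groups. RPL41, the shortest of the proteins, averaged 223 ± 73.2 and 253 ± 59.9, and RPS27 averaged 166 ± 49.2 and 172 ± 22.7 (SD, n = 4). The RPS27L row, a p53-responsive paralog of RPS27, averaged 372 ± 110.5 in control and 427 ± 89.6 in hLcn-2. RPL39L averaged 24.7 ± 1.44 and 27.1 ± 5.67, and the groups overlapped in each of these genes. RPL10L was not analysed here.

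RPL38 was among the least variable genes, at 947, 909, 850.0 and 836 in control and 929.8, 945, 964 and 842 in hLcn-2, an SD of 5.80% of its mean over 8 samples. The median over the 78 genes was 12.9%, and 24 were under 10%. Over 30% lay 6 genes, among them RPL30 at 55.1%, RPL17 at 41.2%, RPL3L at 39.6%, RPL39 at 33.0% and RPS25 at 32.6%. RPL38 was not named by the rule and was chosen after its values were seen.

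A further comparison asked whether these mRNAs differed between the replicate numbers. Over the 4 numbers, with the group as a term, 29 of the 78 genes passed the limma F test (37.2%), against 27.6% of all genes tested. By edgeR on the recovered reads the count was 32 (41.0%), against 33.0%. By subunit, 15 of 48 large subunit genes and 14 of 30 small subunit genes passed in limma. The difference from all genes was smaller once genes with low means were left out. Among the 9006 genes with a mean of at least 10 normalized counts, limma called 33 of 76 members (43.4%), against 42.8% of all. This cut does not match genes by level, since the median level of the 78 members was 451.6. The median range of the 4 means was 0.37 on the log2 scale, against 0.57 for all genes tested. Many of the latter have lower levels, and the ranges of genes of like level were not compared.

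These counts rested on how the variance was estimated and on single libraries. Without the trend of variance on level, 1 of 78 genes (1.28%) and 8.64% of all genes passed, and the limma adjusted p-values of RPL30, RPL39 and RPS18 were 0.0812, 0.0938 and 0.0721 there. The count of 29 fell to 14 without control 2 (18.2% of the members tested, against 15% of all genes), to 15 without hLcn-2 2 (19.2% against 16.1%) and to 12 without hLcn-2 3 (15.6% against 15.3%). Without control 3 it was 9, and the share was then under that of all genes (11.5% against 15.4%). It rose to 44 without control 4 (56.4% against 34.8%) and to 49 without hLcn-2 4 (64.5% against 40.1%). Without both samples of number 3 it was 7 (9.09% against 5.93%), and without number 2 it was 18 (23.4% against 17.5%). The share was also below that of all genes without number 1 (25.6% against 26.3%), so that the members did not pass more often than other genes under every omission.

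Among the 29 genes, 13 had means of numbers 1 and 2 both above those of numbers 3 and 4, and 6 had the opposite order. RPS18, in the head of the small subunit (chromosome 6, 33272075 to 33276511, plus strand, 6 exons), was of the first kind. It measured 678, 581, 431 and 429 in control and 826, 519.5, 470.5 and 442 in hLcn-2, so that numbers 1 and 2 were above 3 and 4 in both groups. Its adjusted p between numbers was 0.00101 in limma. Of the windows of its 3′ end, 67.1% occurred elsewhere in the genome. RPL30, RPS25, RPL4, RPS7, RPS20, RPS27 and RPS3A had the same order.

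RPL39, which lines the exit tunnel of the nascent peptide (chromosome X, 119786504 to 119791630, minus strand, 3 exons), had the opposite order. It measured 150.4, 148, 285 and 218 in control and 119, 226, 286 and 304 in hLcn-2, with an adjusted p between numbers of 0.00253 in limma. In RPL39, 92.6% of the windows of the 3′ end occurred elsewhere in the genome. RPS3, RPS14, RPS23, RPL26 and RPL27A were higher in numbers 3 and 4 as well. RPS28, near the exit of the mRNA channel, had the smallest adjusted p, 0.00041 in limma. It measured 129, 113, 136 and 71.8 in control and 158, 135, 140.2 and 81.5 in hLcn-2, so that number 4 was lowest in both groups. Without number 4 its limma adjusted p was 0.253, and that of RPS18 without number 1 was 0.0660. The starts of RPS18, RPL39 and RPS28 shown above each hold a run of pyrimidines, as do 82.0% of the matched ribosomal protein genes within 5 bases of the start.

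**Figure D5:**
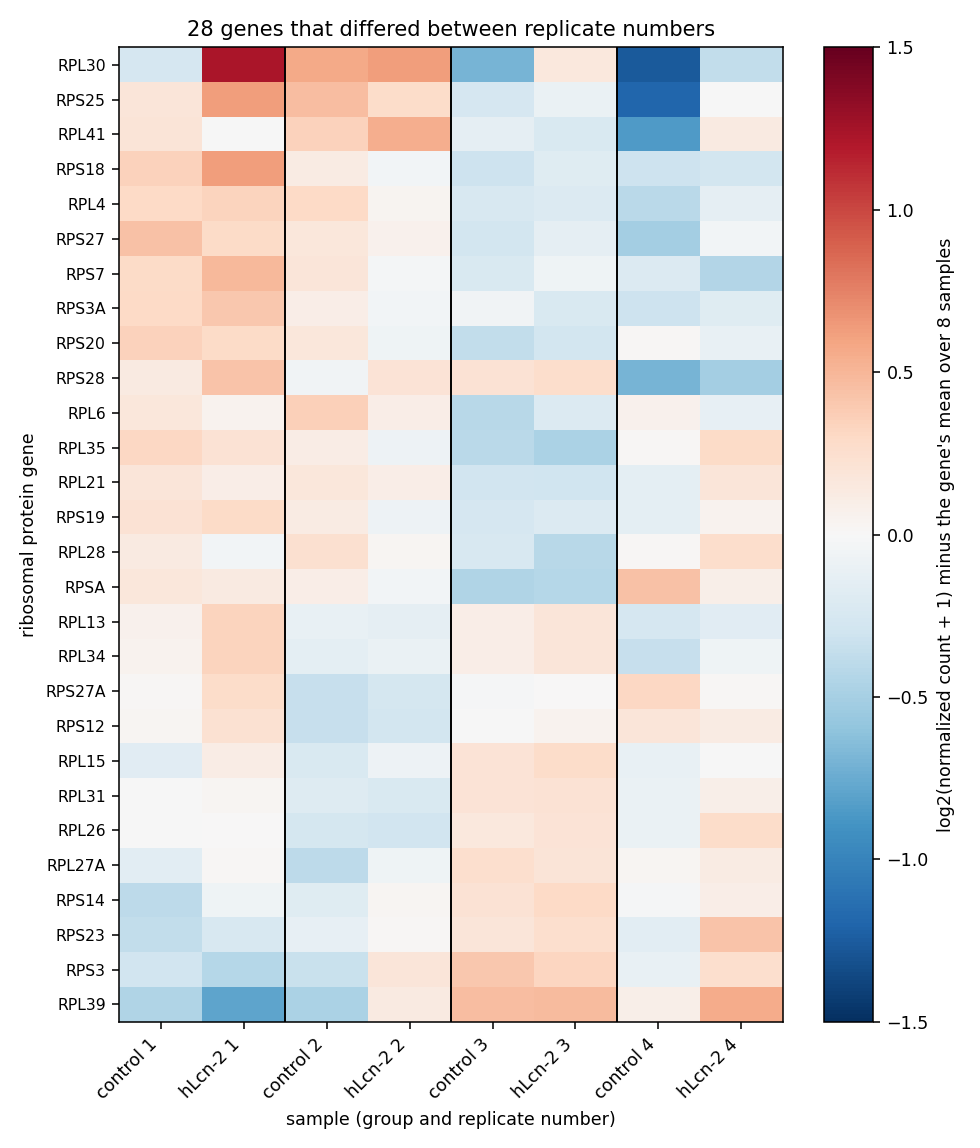
Deviation of log2(normalized count + 1) from the gene's mean over 8 samples for 28 of the 29 genes that passed the F test between replicate numbers, samples ordered by number with black lines between numbers. Red cells are above and blue cells below the mean, with genes higher in numbers 1 and 2 at the top and genes higher in numbers 3 and 4 at the bottom.

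Several library measures moved with the numbers. Libraries of numbers 1 and 2 held 6972124 to 13953090 reads and those of numbers 3 and 4 held 1501563 to 5799151. Ribosomal pseudogene values summed to 1305 to 2358 in numbers 1 and 2 and to 2729 to 3718 in numbers 3 and 4. Genes of the mitochondrial genome took 12.7% and 13.8% of values in number 3 and 7.37% to 8.83% in the other numbers. Of the 18 genes with more than 50% of windows found elsewhere, 10 differed between numbers (55.6%), against 12 of 36 (33.3%) without shared windows and 7 of 24 (29.2%) between. Of these 10, 8 were higher in numbers 1 and 2. The part of depth, mitochondrial share and shared sequence in these differences was not tested.

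Other genes of protein synthesis were read from the same fits. Of 19 tested translation genes that carry TOP tracts, 0 passed in limma with or without the block, their median log2 fold change was 0.074, and 5 (26.3%) had an unadjusted p under 0.05 with the block, all higher with hLcn-2, beside 6.66% of all genes in that direction. The 3 smallest p-values were those of HNRNPA1, an RNA-binding splicing protein, EIF4B, an initiation factor, and PABPC1, the poly(A)-binding protein. Their log2 fold changes were 0.23 ± 0.12, 0.23 ± 0.16 and 0.26 ± 0.21 (SE), each higher in 4 of 4 pairs, with limma adjusted p-values with the block of 0.219, 0.317 and 0.342. Of the 6 ribosomal protein genes named outside the rule, 0 passed, with estimates from −0.037 in FAU to 0.085 in RPL26L1.

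Of 63 ribosome biogenesis factors 0 passed in limma, and their median log2 fold change was −0.028. At an unadjusted p under 0.05 with the block, 5 were higher and 5 lower (7.94% each, beside 6.66% and 5.54% of all genes), and edgeR with the block called 2 of the 63 (3.17%, beside 1.47%). RSL24D1, an assembly factor of the large subunit, was called with an adjusted p of 0.0358 in edgeR, at 100.4, 123, 82.7 and 67.8 in control and 137, 141, 107 and 105 in hLcn-2. UBTF, a transcription factor of RNA polymerase I, was called with an adjusted p of 0.0480 in edgeR, at 43.7, 63.6, 57.6 and 32.3 in control and 50.1, 88.9, 71.6 and 66.5 in hLcn-2. Both were higher in 4 of 4 pairs, and the ranges of the groups overlapped in both.

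Of 16 tested regulators of ribosomal protein synthesis, 0 passed in limma and edgeR with the block called 1 (6.25%, beside 1.47% of all genes). SESN2, a stress-induced inhibitor of mTORC1, measured 86.4, 122, 86.5 and 77.7 in control and 98.6, 210.5, 108 and 184 in hLcn-2. It was higher in 4 of 4 pairs, by 0.63 ± 0.24 (SE) on the log2 scale, and its adjusted p with the block was 0.0161 in edgeR and 0.0840 in limma. MYC, which drives transcription of ribosomal protein genes, had a log2 fold change of 0.53 ± 0.34 (SE) and a limma adjusted p of 0.154 with the block.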

How the data were processed

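RNA from 8 CAKI1 samples was made into 3′ mRNA libraries with unique molecular identifiers (UMIs). The authors aligned reads with STAR to GRCh38, collapsed them by UMI, counted them with HTSeq and normalized them with edgeR. The deposited values are normalized counts per 1000000 reads, a signal from which whole reads could be recovered, since 100.0% of 134256 values were whole multiples of the worth of 1 read within 0.01. One value was written with a decimal comma and read as a point. Strand setting, treatment of reads with several matches and annotation version are not given in the sources used here.

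The values were tested with limma 3.58.1 (variance trend, two-sided) on log2(value + 1), over 15477 genes with at least 1 in at least 2 samples, with Benjamini-Hochberg adjustment and a threshold of 0.05. An F test over the 4 replicate numbers had the group as a term. Fold changes on this scale understate changes of low genes. edgeR 4.0.16 and DESeq2 1.42.0 were run on the recovered reads. The numbers were taken to pair samples, since deviations from group means correlated in each pair (0.48, 0.59, 0.61 and 0.31). The limma tests were checked on simulated data with 200 changed genes. The simulated group comparison held no difference between replicate numbers, so this check does not cover the spread seen here. Annotation came from GENCODE 44. Floors cover counting error only, and 95% intervals come from the spread between samples. Named were the 4 highest and 4 lowest members, those with the smallest p (6 without and 4 with the block, 4 between numbers), and members listed by role; some of these genes are not reported here. The members, lists and tests were chosen with earlier results of these data known.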

Additional observations from a re-analysis of the deposited data

How the results depend on the processing

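For hLcn-2 against control, the count of genes that passed was 0 for all genes and for the ribosomal protein genes under other pseudocounts, filters, scalings, tools without the replicate block and each omission of samples without it. With the replicate block, which follows the pairing of the numbers, it was 44 for all genes and 0 for the ribosomal protein genes. It was 39 on reads thinned to the shallowest library, 39 with a correction for GC content and transcript length, 47 with pseudogene values added (chosen after seeing the data) and 227 in edgeR, of which 1 (RPL30), 0, 0 and 1 (RPL30) were ribosomal protein genes. With the block and without 1 number (chosen after seeing the data) it was 0 to 54, the 0 being without number 3, and 0 to 1 for the ribosomal protein genes. On the deposited values of all 8 samples, the limma block changed no call of a ribosomal protein gene. Between numbers, 1337 genes and 1 ribosomal protein gene passed without the variance trend, and leaving out a sample or number gave 889 to 6119 and 7 to 49. The cause of these shifts was not tested.

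Over all alternatives run, the median log2 fold change of the ribosomal protein genes lay between 0.028 and 0.091, their count above 0 between 49 and 70, and the difference in their share of all values between 0.068 (without hLcn-2 1) and 0.217 percentage points (without control 1). RPL30 passed with the block in edgeR (0.83 on the log2 scale) and on thinned reads (0.90). Estimates near 0 changed sign: RPL39L at −0.027 and RPS27 at −0.00050 on thinned reads, RPS27A at −0.00040 with the total without ribosomal protein and mitochondrial genes (a scaling under which the median of all genes was −0.020), RPL3L at −0.10 in DESeq2 and −0.15 and −0.29 in edgeR without and with the block, RPLP1 at 0.011 with TMM computed again and at 0.0049 and 0.0076 in edgeR without and with the block. RPS6 was at 0.0047 in DESeq2, 0.011 with TMM computed again, 0.015 and 0.0089 in edgeR without and with the block, and 0.00061 with pseudogenes added. Leaving out samples or numbers gave ranges that spanned 0, −0.014 to 0.11 for RPL10, −0.14 to 0.016 for RPL13A, −0.076 to 0.13 for RPL3, −0.024 to 0.10 for RPL37A, −0.13 to 0.16 for RPL3L, −0.032 to 0.38 for RPL41, −0.032 to 0.11 for RPL5, −0.030 to 0.11 for RPLP0, −0.047 to 0.059 for RPLP1, −0.30 to 0.13 for RPS10, −0.038 to 0.17 for RPS12, −0.13 to 0.20 for RPS18, −0.066 to 0.25 for RPS27, −0.090 to 0.13 for RPS27A, −0.0034 to 0.40 for RPS28 and −0.066 to 0.078 for RPS6. Depth limits RPL17 and RPL3L most, which lay at or under the floor of 3 reads in control 4, hLcn-2 2 and hLcn-2 3, and RPL3L also in control 3.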
